A study of Mus musculus with 4 samples.

Results

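MYC and MYCN are transcription factors that bind DNA as pairs with MAX, and the other genes described here encode the proteins that compete with them for MAX. The set held 9 mouse genes, Myc, Mycn, Max, Mxd1, Mxd3, Mxd4, Mxi1, Mnt and Mga. They were chosen by name, taking every non-control probe whose gene name was one of the 9, which gave 11 probes on 12 spots. The whole array held 35157 genes with a value, 55681 probes and 59305 non-control spots. The rule uses the gene name alone. Expression was read on 1-colour Agilent arrays from 4 cell populations, to set 2 lines of induced pluripotent stem (iPS) cells beside embryonic stem cells and fibroblasts.

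The iPS lines were iPS-OSH and iPS-J, both of C57BL/6 background. iPS cells are somatic cells reprogrammed to a pluripotent state, and the labels do not say which factors were used to make either line. The embryonic stem cells (ESC) had the 129SV background, so in every ESC comparison the strain and the cell type cannot be told apart. The culture medium of these 3 pluripotent lines held serum and the cytokine LIF. The mouse embryonic fibroblasts (MEF), connective tissue cells of the embryo, had the C57BL/6 background and were grown in serum medium with no LIF named. There was 1 array per population, so the differences below lack a replicate check and carry no p-value.

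A pair of MYC or MYCN with MAX binds the E-box, the bases CACGTG, and activates genes of growth, ribosome production and metabolism. The MXD proteins, with MXI1 and MNT, pair with MAX at the same sites and bring the SIN3 and histone deacetylase corepressor, so the balance between the partners sets the output of shared target genes. MGA, a much larger protein, also pairs with MAX and belongs to a Polycomb complex, PRC1.6, which keeps germline genes silent in embryonic stem cells. In pluripotent cells MYC and MYCN are known to act largely interchangeably in sustaining growth, and MYC is one of the classical reprogramming factors.

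The probes are 60 bases long, and their positions are those of the array design in the mm9 assembly. The first 30 bases of the probes that carry the main results are shown here because each result is the brightness of that sequence alone. The Myc probe lies at chr15:61821417-61821476 on the plus strand, the Mycn probe at chr12:12943193-12943252 on the minus strand, and the Mga probe at chr2:119792479-119792538 on the plus strand.
Myc: aacagttgaaacacaaactcgaacagcttc
Mycn: tgtactaattcctacacggcctgtatactt
Mga: caggtcatcagcacttaacctttcctgttt
The longest run of bases that the Myc and Mycn probes shared was 5, and probes of any 2 different genes of the set shared at most 9. No other probe of the array held a run of 20 bases from any of the 11 probes. The Myc and Mycn signals were thus read by probes of distinct sequence. This search covered probes of the array only, not other transcripts.

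The labelled cell types were set beside marker lists. These lists were chosen with earlier results of these data known, so they are no independent check. All 8 pluripotency markers (Pou5f1, Sox2, Nanog, Zfp42, Dppa5a, Fbxo15, Esrrb and Tdgf1) were at least 2-fold higher in each pluripotent line than in MEF. Their summed level, each marker's signal divided by the 75th percentile of its array, was 261 in iPS-OSH, 367 in iPS-J, 504 in ESC and 0.699 in MEF, where Sox2 and Zfp42 were not well above background. The 9 fibroblast markers (Col1a1, Col1a2, Col3a1, Thy1, Postn, Dcn, Lum, Twist2 and Pdgfrb) summed to 298 in iPS-OSH, 54.9 in iPS-J, 44.4 in ESC and 984 in MEF. All 9 exceeded both other pluripotent lines at least 2-fold in iPS-OSH. The 8 endoderm markers (Gata4, Gata6, Sox17, Sox7, Foxa2, Dab2, Amn and Cubn) summed to 69.9 in iPS-J against 3.68 in iPS-OSH, 6.49 in ESC and 3.44 in MEF. The 5 macrophage markers summed to between 4.59 and 9.33. In these bulk samples, fewer cells of a type and less RNA per cell cannot be told apart.

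Each array was scaled to its own 75th percentile of processed signal, which lay between 1241 and 1765, and 67.0% to 81.7% of spots were well above background. No spot of the 9 genes was called uneven, outlying or saturated on any array. Probes printed 10 times gave the spread between spots within an array, a median log2 SD of 0.06 to 0.14 for signals over 1000, 0.09 to 0.21 between 100 and 1000, and 0.36 to 0.63 under 100. These SDs cover spot noise only and hold nothing of the spread between cultures. All arrays lay on 1 slide, and they were scanned in 3 sessions, MEF alone, both iPS lines together and ESC alone. Scan session and cell population therefore cannot be told apart, apart from iPS-OSH against iPS-J.

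**Figure D1:**
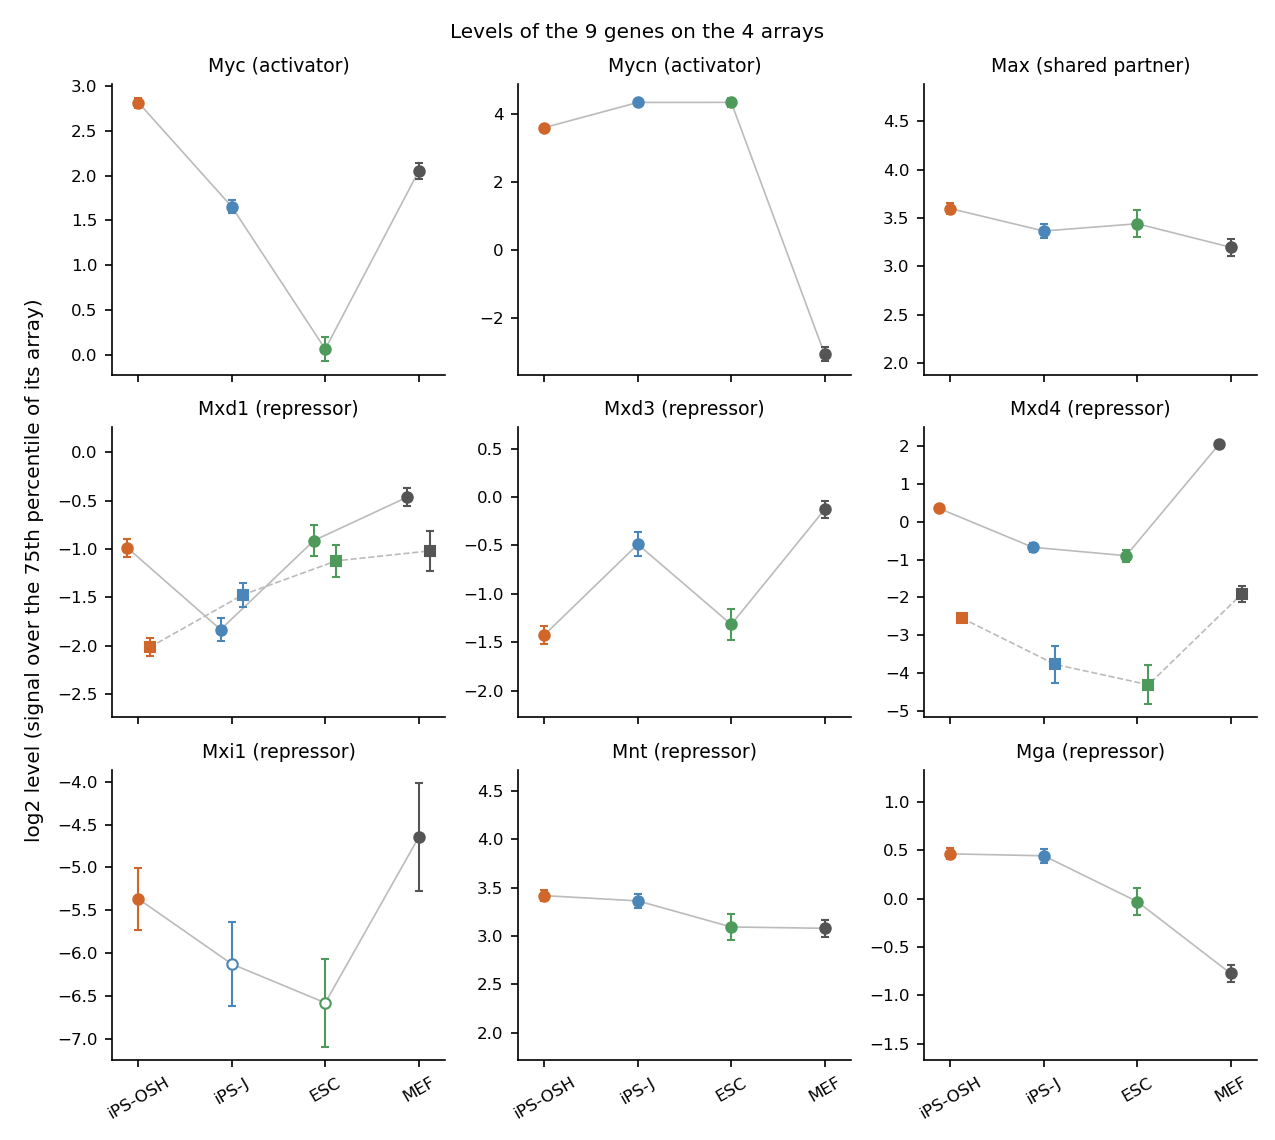
Level of each of the 9 genes on the 4 arrays. The y axis is the log2 signal relative to the 75th percentile of its array, points are single arrays, and bars are 1 SD of spots in the same signal range. Squares and dashed lines are the second probe of Mxd1 and Mxd4, and open points were not well above background. Each panel has its own y axis, and Mycn spans 7.40 log2 units while Max spans 0.40.

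Myc and Mycn, the activating partners, had different patterns over the 4 populations. Myc was brightest in iPS-OSH and dimmest in ESC, while Mycn was bright in all 3 pluripotent lines and dim in MEF. Myc was printed on 2 spots. Its signal, before scaling, was 10985 in iPS-OSH, 3901 in iPS-J, 1370 in ESC and 7299 in MEF. The spots agreed closely, at 11146 and 10825 in iPS-OSH, 3885 and 3916 in iPS-J, 1383 and 1357 in ESC, and 7153 and 7447 in MEF. After scaling, the order was iPS-OSH, MEF, iPS-J, ESC, and each neighbouring gap was larger than 2 SD of spot noise. The gap from iPS-OSH to MEF was 0.76, from MEF to iPS-J 0.40, and from iPS-J to ESC 1.58 log2 units.

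Between the pluripotent lines, Myc in iPS-OSH exceeded that in ESC 6.70-fold and that in iPS-J 2.24-fold, and Myc in iPS-J exceeded that in ESC 3.0-fold. Ranked from the highest difference, Myc stood at 317 of 30569 genes in iPS-OSH against ESC and at 507 of 29584 in iPS-J against ESC. Against MEF, the ESC level was 3.95-fold lower, and those of both iPS lines were within 2-fold. The fibroblast markers moved with Myc in part, since their summed level was also higher in iPS-OSH than in iPS-J or ESC. In iPS-OSH their sum was below that in MEF (298 against 984), while Myc was 1.70-fold above MEF. The 9 fibroblast markers did not move together there. At 2-fold, 6 were lower than in MEF and 1, Dcn, was higher, by 1.34 log2 units. Lum (-0.43) and Twist2 (-0.45) were within 2-fold. The summed endoderm markers were by far highest in iPS-J. In iPS-OSH and in ESC, 5 of the 8 were also at least 2-fold above MEF. The part of either marker group in the Myc difference was not tested. The labels name no Myc transgene, and this probe would not separate transcripts of the locus from those of an introduced copy with the same bases.

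Mycn, the paralogue first known from neuroblastoma and active in early embryonic tissues, had the largest differences of the set. Its signal was 18965 in iPS-OSH, 25119 in iPS-J, 26501 in ESC and 212 in MEF, where it was still well above background. It was 101-fold higher in iPS-OSH than in MEF, and the excess was 168-fold in iPS-J and 169-fold in ESC. Counted from the highest difference, it ranked 85 of 31161 genes for iPS-OSH, 67 of 30660 for iPS-J and 89 of 31397 for ESC, each compared with MEF. These 3 comparisons share the MEF array.

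The pluripotent lines were much closer to each other in Mycn. iPS-J and ESC did not differ beyond spot noise, with a difference of -0.00 ± 0.16 (SD of spots, log2). iPS-OSH was 1.67-fold below both, a gap of 0.74 that exceeded 2 SD of spot noise against each. Under the alternatives the log2 difference lay between -0.92 and -0.33 from ESC, and between -0.74 and -0.40 from iPS-J. In iPS-OSH the line with the highest Myc signal thus had the lowest Mycn signal of the 3, but the levels of the 2 probes cannot be set against each other.

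The 30 bases of the Mycn promoter that hold matches to E2F sites, the binding sites of cell cycle regulators that also recruit PRC1.6 through E2F6, are shown because Mycn had the largest difference. Promoter windows of 250 bases before to 50 after the start were taken from RefSeq in the GRCm38.p6 assembly. They were found for 8 of the 9 genes, in 10 windows, all but Myc. The sites searched were TTTCCCGC, TTTGGCGC, TTTCGCGC and TTTGCCGC on both strands, and matches are in capitals, with the stretch at chr12:12941993-12942022 on the minus strand.
Mycn: gctTTTGGCGCGAAAggcTTTGGCGCctcc
The window held 3 matches, beginning 183, 179 and 168 bases before the start, and the first and second overlap. An E2F match was present in 2.26% of 32851 windows of the same length, and in none of the other windows of the set.

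The E-box itself, CACGTG, which reads the same on both strands, was searched in the same windows. It occurred once each in the windows of Max, Mnt and Mxd4, at 3, 123 and 219 bases before the start, and in none of the others of the set. In all windows its share was 7.15%. The stretches are at chr12:76962234-76962263 on the minus strand for Max, chr11:74830789-74830818 on the plus strand for Mnt and chr5:34187912-34187941 on the minus strand for Mxd4, with the E-box in capitals.
Max: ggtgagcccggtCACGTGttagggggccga
Mnt: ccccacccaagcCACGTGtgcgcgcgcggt
Mxd4: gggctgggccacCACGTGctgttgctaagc
Binding was not measured here, and these 3 genes did not share a pattern of levels. Max and Mnt stayed within 2-fold in every comparison, while Mxd4 differed up to 7.79-fold.

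Max, the partner that the others share, was close to level. Its probe (chr12:78038272-78038331, minus strand) gave signals of 18939 in iPS-OSH, 12799 in iPS-J, 14206 in ESC and 16197 in MEF. After scaling, these spanned 0.40 log2 units, and no neighbours in the order iPS-OSH, ESC, iPS-J, MEF differed beyond 2 SD of spot noise. Under other scalings the order of the arrays changed and the sign of both the iPS-J and the ESC difference from MEF turned, so no direction is read for these. iPS-OSH was above MEF by 0.40 ± 0.10 (SD of spots, log2), and by 0.22 to 0.52 under the alternatives, in each case within 2-fold.

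Mnt, the widely expressed repressive partner, was similarly level. Its probe (chr11:74658915-74658974, plus strand) gave 16722 in iPS-OSH, 12779 in iPS-J, 11165 in ESC and 14927 in MEF. The span was 0.34 log2 units, and no neighbours in the order iPS-OSH, iPS-J, ESC, MEF differed beyond 2 SD of spot noise. The sign of the iPS-J and ESC differences from MEF again turned under some scalings. iPS-OSH was above MEF by 0.34 ± 0.10 (SD of spots, log2), and by 0.16 to 0.45 under the alternatives.

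The MXD genes, which encode short-lived repressive partners, were all brightest in MEF. Mxd4 had the largest range of these. It was read by 2 probes on the minus strand of chromosome 5, at chr5:34519323-34519382 and chr5:34519276-34519335, which overlap. The last 30 bases of the first and the first 30 of the second are shown with the 13 shared bases in capitals, because the probes gave very different signals.
Mxd4, first probe: atcattccagaagtattAAATATCATTTCT
Mxd4, second probe: AAATATCATTTCTacaaatctcggcaggat
The first probe, the brighter one that stands for the gene, gave 1999 in iPS-OSH, 779 in iPS-J, 702 in ESC and 7387 in MEF. The second gave 268, 90.7, 65.7 and 471 in the same order. Both put the arrays in the order MEF, iPS-OSH, iPS-J, ESC.

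By its brighter probe, Mxd4 was 3.27-fold lower in iPS-OSH than in MEF, 6.67-fold lower in iPS-J and 7.79-fold lower in ESC. By the dimmer probe these folds were 1.56, 3.65 and 5.31, so the iPS-OSH difference was within 2-fold there. Mxd4 was also 2.38-fold higher in iPS-OSH than in ESC and 2.04-fold higher than in iPS-J, and 3.41-fold and 2.34-fold by the dimmer probe. The difference from iPS-J fell within 2-fold under normexp background correction and quantile normalization. iPS-J and ESC did not differ beyond spot noise on either probe. The summed fibroblast markers had the same order of arrays as Mxd4, and their part in the Mxd4 differences was not tested.

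Mxd1 was read by 2 probes on the minus strand of chromosome 6, with 1803 bases between them. The probe at chr6:86599053-86599112 gave 789 in iPS-OSH, 349 in iPS-J, 695 in ESC and 1281 in MEF. The probe at chr6:86597190-86597249 gave 387, 447, 601 and 871. MEF was highest on both, but the probes went opposite ways for the iPS lines.
Mxd1, brighter probe: gacaccgccattctctgtgctttcattgtt
Mxd1, dimmer probe: cgcgggtgaagaatgagaagcgcgtttcca
Their first 30 bases are shown because of this disagreement. By the brighter probe, iPS-OSH was above iPS-J by 0.85 log2 units, and by the dimmer one it was below by 0.54, each beyond 2 SD of spot noise. The 2.59-fold lower level of iPS-J against MEF by the brighter probe was 1.37-fold by the other. No direction between the iPS lines is read for Mxd1.

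Mxd3, the MXD gene known from proliferating cells in S phase, was read by 1 probe (chr13:55427000-55427059, minus strand). Its signal was 583 in iPS-OSH, 885 in iPS-J, 525 in ESC and 1616 in MEF. It was 2.46-fold lower in iPS-OSH and 2.28-fold lower in ESC than in MEF, and iPS-J, at 1.28-fold below MEF, stood between. iPS-OSH and ESC did not differ beyond spot noise. Scaled on the probes detected on every array, the ESC difference from MEF was -0.95, within 2-fold.

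Mxi1 was the dimmest gene of the set relative to background. Its probe (chr19:53450238-53450297, plus strand) gave 37.9 in iPS-OSH and 70.4 in MEF, and was not well above background in iPS-J (17.8) or ESC (13.7). The MEF level was above that of iPS-OSH by 0.72 log2 units, within 2 SD of spot noise. Against the dim arrays only bounds were available, and none reached 2-fold.

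Mga, the partner that takes MAX into PRC1.6, was the only repressive member brighter in the pluripotent lines than in MEF by 2-fold in any comparison. Its signal was 2155 in iPS-OSH, 1686 in iPS-J, 1279 in ESC and 1031 in MEF. Relative to MEF iPS-OSH was 2.36-fold, iPS-J 2.32-fold and ESC 1.67-fold higher. In the unscaled value table the iPS-J difference was 0.71 log2 units, within 2-fold. The iPS lines did not differ beyond spot noise, and both lay above ESC by more than 2 SD of it in the order of levels. Under the alternatives these gaps from ESC were 0.31 to 0.91 for iPS-OSH and 0.26 to 0.64 for iPS-J. The 0.26, scaled on the probes detected on every array, was within 2 SD of spot noise.

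**Figure D2:**
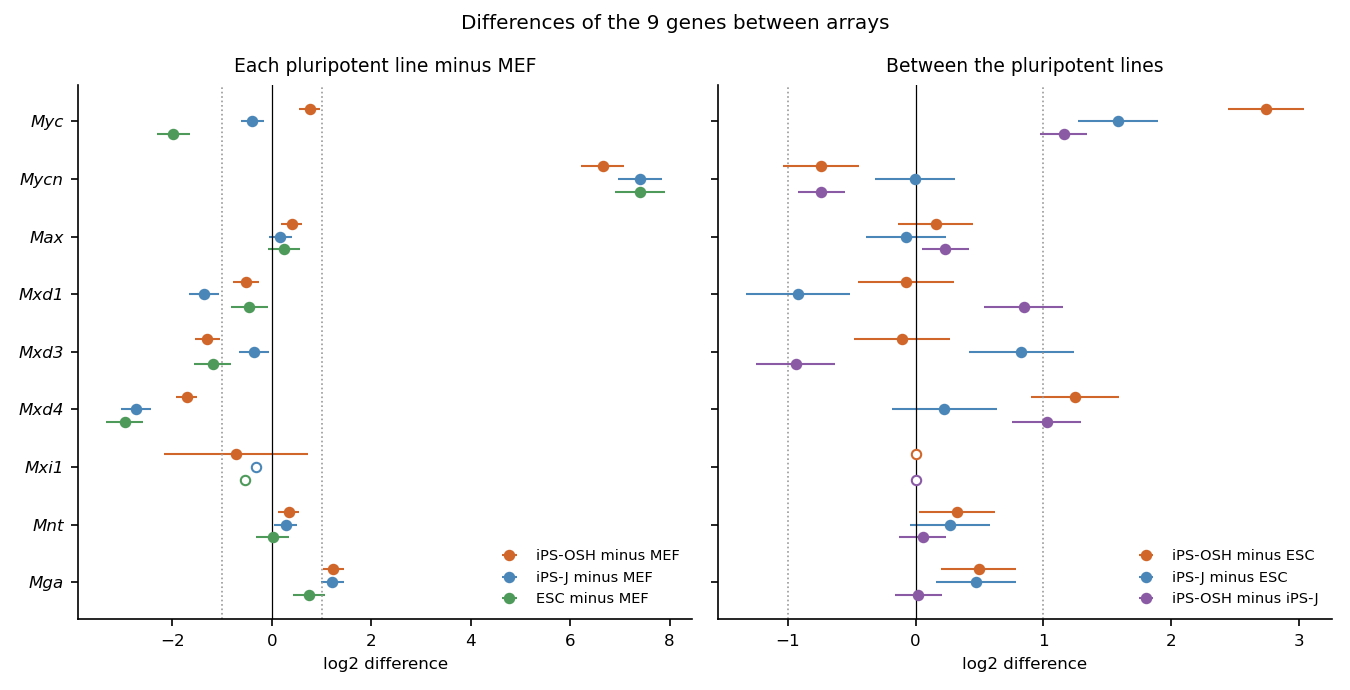
Log2 differences of the 9 genes between arrays, each pluripotent line minus MEF on the left and the pluripotent lines against each other on the right, on separate x axes. Bars are 2 SD of spot noise, dotted lines mark 2-fold, and open points are bounds. Mycn lies between 6.66 and 7.40 on the left, while Myc lies on both sides of 0.

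As counts at 2-fold, 4 of 9 genes differed between iPS-OSH and MEF, with Mycn and Mga higher and Mxd3 and Mxd4 lower. Of all 31161 genes in that comparison, 36.0% did so, 12.6% higher and 23.4% lower. Between iPS-J and MEF, 4 of 9 differed, with Mycn and Mga higher and Mxd1 and Mxd4 lower, against 39.6% of all genes, 16.0% higher and 23.6% lower. Between ESC and MEF, 4 of 9 differed, with Mycn higher and Myc, Mxd3 and Mxd4 lower, against 38.3% of all genes, 21.8% higher and 16.5% lower. These shares are near the background, and the counts say nothing particular about the set.

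Between the pluripotent lines, 2 of 9 genes differed at 2-fold in iPS-OSH against ESC, Myc and Mxd4, both higher, against 35.3% of all genes in either direction, 8.73% higher and 26.5% lower. In iPS-J against ESC, 1 of 8 comparable genes differed, Myc, against 28.4% in either direction, 5.37% higher and 23.0% lower. In iPS-OSH against iPS-J, the same 2 genes, Myc and Mxd4, were higher in iPS-OSH, against 15.1% in either direction, 7.86% higher and 7.28% lower. The median difference of the set was 0.34, -0.31 and -0.45 against MEF in iPS-OSH, iPS-J and ESC, where all genes had -0.32, -0.19 and 0.11.

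The genes with the most similar profile were sought for the 3 members that spanned at least 2 log2 units, Myc, Mycn and Mxd4. Likeness was the root mean square distance between profiles over the 4 arrays, each centred on its own mean, among 24311 genes well above background on every array. With 4 points a profile, and so many genes, close profiles are a description of these arrays only. Nearest to Myc were Zfr, Zc3h12a, Serpine2, Tor4a and Cited2, at distances of 0.18 to 0.23, and 175 genes lay within 0.5. Serpine2, a secreted protease inhibitor, had signals of 6449, 1781, 908 and 4086 in iPS-OSH, iPS-J, ESC and MEF. Cited2, a transcriptional coregulator, had 14219, 6288, 2551 and 9284.

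Nearest to Mycn were Pipox, Esrrb, Rex2, Nup210 and Mep1b, at 0.16 to 0.22, and 26 genes lay within 0.5. Esrrb, a nuclear receptor of the pluripotency network, had signals of 66315, 62564, 74913 and 704 in the same order, and it is also one of the pluripotency markers. Nup210, a nuclear pore protein, had 12378, 12689, 12243 and 130. Mep1b gave 38.6 in MEF, near the lowest well-detected signal of that array, 37.8. Genes not well above background in MEF, such as Sox2 and Zfp42, could not enter the search, which limits the count near Mycn. Nearest to Mxd4 were Mgat1, Tnfrsf1b, Man2a1, Gas6 and Cyp26b1, at 0.03 to 0.06, and 1085 genes lay within 0.5, so its pattern was a common one. Gas6, a growth arrest gene that encodes a receptor ligand, had 22618, 9745, 8217 and 83798.

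**Figure D3:**
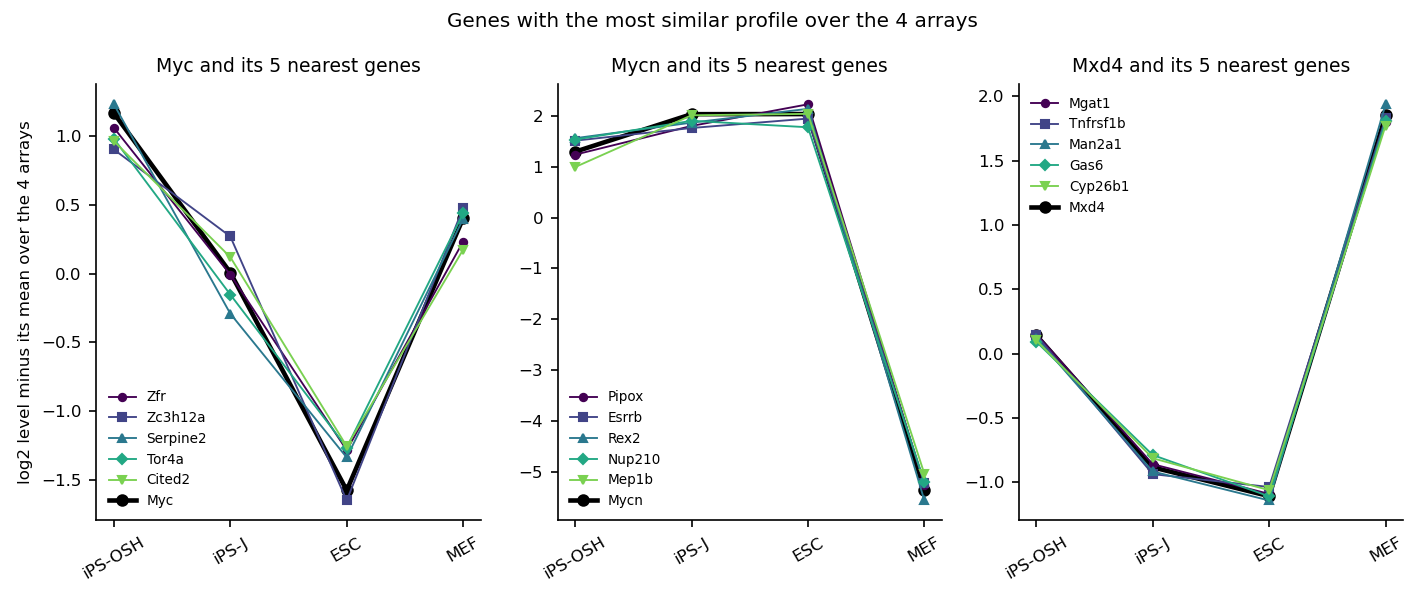
Profiles of Myc, Mycn and Mxd4 (thick black lines) with those of their 5 nearest genes. The y axis is the log2 level minus its mean over the 4 arrays, on a separate scale for each panel, and points are single arrays. All 5 genes near Mxd4 lie within 0.06 log2 units of it (root mean square), those near Myc within 0.23.

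The wider network was read from 9 gene lists. For comparison, the shares of all genes at least 2-fold higher and lower than in MEF were 12.6% and 23.4% for iPS-OSH, 16.0% and 23.6% for iPS-J, and 21.8% and 16.5% for ESC, and their medians -0.32, -0.19 and 0.11. For iPS-OSH against ESC the shares were 8.73% and 26.5%, and the median was -0.28. In the parallel MLX arm, whose proteins respond to glucose, Mlxipl, which encodes ChREBP, had signals of 920 in iPS-OSH, 1519 in iPS-J, 2235 in ESC and 190 in MEF. It was higher than in MEF by 2.45, 3.51 and 3.99 log2 units. Mlx was higher by 0.82, 0.90 and 0.83, and Mycl, the remaining MYC paralogue, and Mlxip were within 0.40 of MEF in each line. Mycs was not well above background on any array. Thus 1 of 4 comparable genes passed 2-fold in each line, and the medians were 0.53, 0.64 and 0.52.

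Of the 14 PRC1.6 partners of MGA and MAX, 5 were at least 2-fold higher and 2 lower in iPS-OSH than in MEF, 7 and 3 in iPS-J, and 4 and 3 in ESC. Pcgf6, the subunit that defines the complex, gave 13281 in iPS-OSH, 9259 in iPS-J, 9664 in ESC and 1675 in MEF, a difference of 3.16, 2.97 and 2.96. L3mbtl2, a chromatin binding subunit, was higher by 2.76, 2.51 and 2.80. The 2 lower in all 3 lines were E2f6, which targets the complex to DNA, by -1.28, -1.28 and -1.54, and Yaf2, by -1.43, -1.91 and -2.07. In both iPS lines Mga thus differed from MEF in the direction of Pcgf6 and L3mbtl2 and opposite to E2f6 and Yaf2. The list's median was 0.40, 0.98 and 0.65.

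Of 16 germline genes that MGA and PRC1.6 are known to hold down, 13 were at least 2-fold higher in every pluripotent line than in MEF. The list's median was 2.92 for iPS-OSH, 3.80 for iPS-J and 3.71 for ESC, with 6 differences in each line as bounds, and over the genes measured on both arrays it was 2.75, 3.80 and 3.71. Mael, a piRNA pathway gene, gave 3135 in iPS-OSH, 4360 in iPS-J, 3049 in ESC and 141 in MEF. Tdrkh was the only one 2-fold lower, in both iPS lines.

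In iPS-OSH against ESC, 6 of 15 comparable germline genes were at least 2-fold lower and none higher, beside 26.5% and 8.73% of all genes, with a median of -0.77, where all genes had -0.28. The other 9 were within 2-fold. Meioc, a regulator of meiotic prophase, gave 768 in iPS-OSH, 1694 in iPS-J, 4498 in ESC and 19.1, not well above background, in MEF. Smc1b, a meiotic cohesin, was lower in iPS-OSH than in ESC by -2.91, and Sycp3, of the synaptonemal complex, by -2.15. In iPS-J against ESC, 4 of 15 comparable germline genes were at least 2-fold lower and none higher, beside 23.0% and 5.37% of all genes. The Mga level lay 0.49 above that of ESC in iPS-OSH and 0.47 above it in iPS-J. Any link between Mga and these genes was not tested.

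Of 12 genes of the SIN3 corepressor, through which MXD proteins and MNT repress, 2 were at least 2-fold higher in each line than in MEF, a share near that of all genes, and the medians were 0.37, 0.13 and 0.04. Sin3a, the scaffold, was higher by 1.53, 1.97 and 1.92, and Sap30, a subunit, by 1.83, 2.59 and 2.38. The direction of the list's median in iPS-J and ESC turned with the scaling.

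Of 12 MYC coactivators on the array, 5, 4 and 3 were higher and none lower in iPS-OSH, iPS-J and ESC than in MEF. They included Pim1, a kinase induced by LIF, which gave 1659, 1768, 1499 and 294 in iPS-OSH, iPS-J, ESC and MEF, and Actl6a, a chromatin remodelling subunit, higher by 2.08, 1.85 and 1.77. The acetyltransferase scaffold Trrap was below MEF by -0.43, -0.56 and -0.46, within 2-fold. The coactivator medians were 0.56, 0.41 and 0.03, and those of iPS-J and ESC turned sign with the scaling. Of 13 genes that act on MYC protein stability, 2, 1 and 1 were higher and 2, 1 and 3 lower than in MEF, with medians of 0.29, 0.33 and -0.10, of which the iPS-J and ESC ones turned sign with the scaling. Usp28, a deubiquitinase of MYC, was higher in all 3 lines by 1.72, 2.82 and 3.0, and lower in iPS-OSH than in ESC by -1.28. Trim32, a ubiquitin ligase, was lower in all 3 by -1.26, -1.42 and -1.35. Gsk3b, the kinase that marks MYC for degradation, was 2-fold lower in iPS-OSH and ESC.

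Of 22 MYC targets of ribosome biogenesis, 11, 8 and 10 passed 2-fold upwards in iPS-OSH, iPS-J and ESC relative to MEF and none downwards. The medians were 0.99, 0.85 and 0.92. Ncl, which encodes nucleolin, was higher by 1.79, 1.58 and 1.59, and Wdr12, of ribosomal RNA processing, by 1.81, 1.48 and 1.05. Between iPS-OSH and ESC, where Myc differed 6.70-fold, the list's median was 0.16 where all genes had -0.28, and it lay between -0.02 and 0.57 under the alternatives. Only Polr1b, a subunit of RNA polymerase I, passed 2-fold in that comparison, lower by -1.60, beside 35.3% of all genes.

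Of 28 MYC targets of metabolism and the cell cycle, 7, 12 and 7 were higher and 1, 1 and 2 lower than in MEF, with medians of 0.45, 0.77 and 0.55. Shmt1, of one-carbon metabolism, gave 4268 in iPS-OSH, 2550 in iPS-J, 5486 in ESC and 400 in MEF. Gart, of purine synthesis, was higher by 2.19, 2.46 and 2.07, and Tert, the telomerase catalytic subunit, by 1.56, 1.56 and 2.84. Cyclin gene Ccnd2 was 2-fold lower in iPS-J and ESC, at 33344 in iPS-OSH, 4623 in iPS-J, 2810 in ESC and 53172 in MEF. In iPS-OSH it differed from MEF by -0.50, within 2-fold. The gene lower in iPS-OSH was Slc7a5, by -1.35, and it was also lower in ESC, by -1.21. In iPS-OSH against ESC, 1 of the 28 was 2-fold higher, Ccnd2, and 1 lower, Tert, beside 8.73% and 26.5% of all genes, with a median of 0.05 that lay between -0.13 and 0.47 under the alternatives.

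Of 12 genes that MYC is known to repress, 7, 6 and 7 were at least 2-fold below MEF in iPS-OSH, iPS-J and ESC. At least 2-fold higher were 2, 3 and 1, and the medians were -1.50, -1.05 and -2.48. Under the alternatives these medians lay between -1.67 and -0.67, -1.55 and -1.01, and -2.92 and -1.07. The median over probes gave the -0.67 of iPS-OSH and the -1.07 of ESC. In iPS-OSH, the line with the highest Myc, 7 of the 12 were 2-fold above their ESC level and 3 below, beside 8.73% and 26.5% of all genes, with a median of 1.04 where all genes had -0.28. Cdkn2b, which encodes the cell cycle inhibitor p15, gave 8957 in iPS-OSH, 1872 in iPS-J, 1064 in ESC and 29804 in MEF. Thbs1, an extracellular matrix gene, exceeded its ESC level in iPS-OSH by 3.03, and Ccnd1 by 2.85. Fibroblast markers were higher in the same comparison in 9 of 9 cases, with a median of 2.78, and Pdgfrb belongs to both lists. Their part in the result was not tested.

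**Figure D4:**
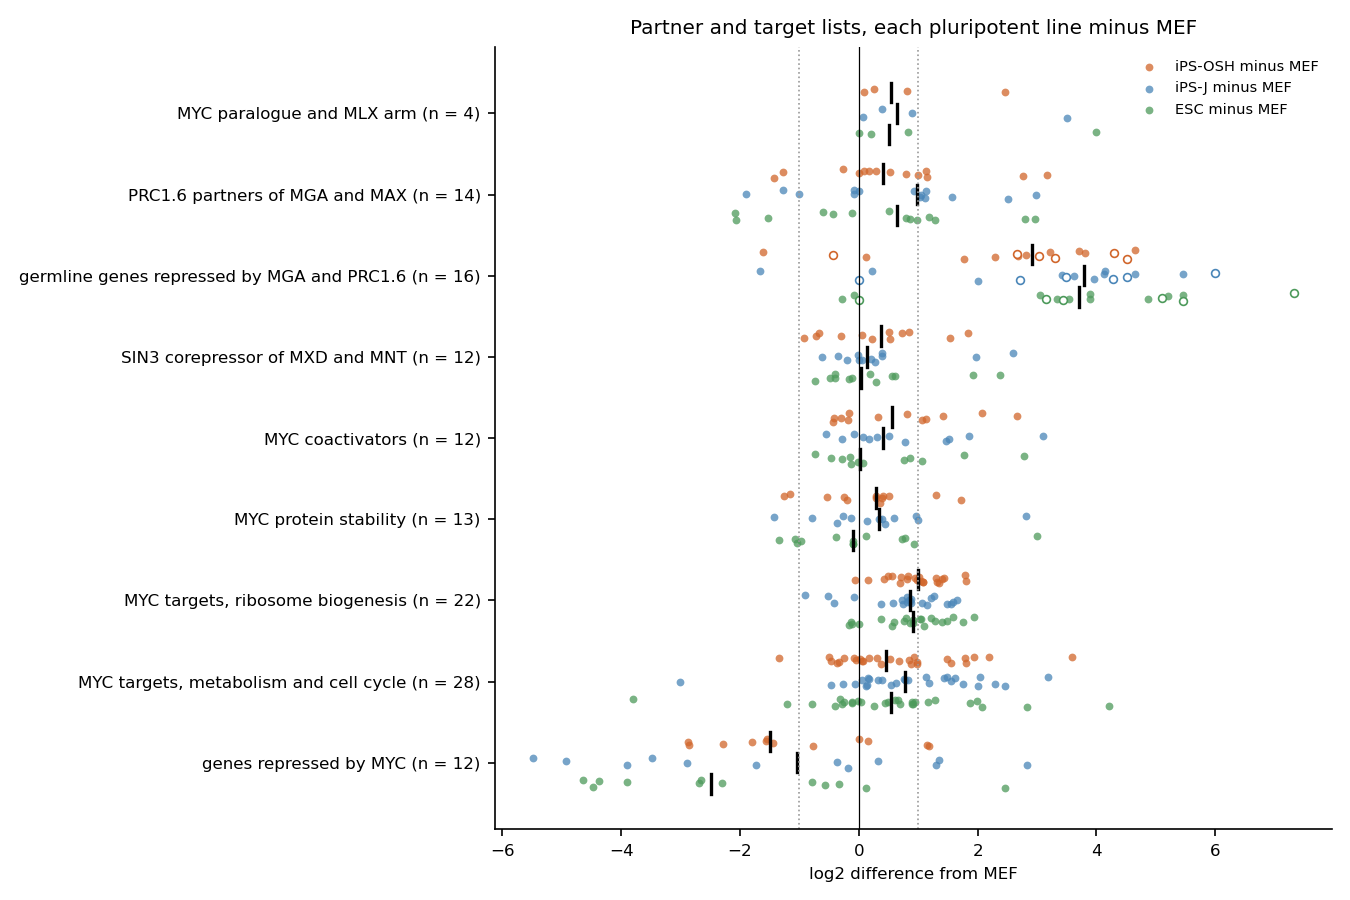
Log2 difference from MEF of every gene of the 9 partner and target lists, each point 1 gene, with the 3 pluripotent lines as separate rows. Black bars are medians, open points are bounds, and dotted lines mark 2-fold. The ribosome biogenesis medians lie between 0.85 and 0.99, and those of the genes repressed by MYC between -2.48 and -1.05.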

How the data were processed

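RNA of 4 cell populations was labelled with Cy3 and hybridized to 1-colour Agilent arrays, per the labels. The deposited files give spot intensity as Agilent Feature Extraction 10.5.1.1 wrote it, background-subtracted and detrended on each array and not normalized across arrays, per the file headers. In the deposited value tables this intensity is rounded, with deviations of at most 0.497%.

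The log2 processed signal was scaled by subtracting the log2 75th percentile of its array. Uneven or outlying spots were left out, and spots of 1 probe were averaged. Genes were named through a RefSeq table by accession (26425 probes), symbol (3988) or synonym (826), and 24442 probes kept the name in the files. The brightest probe stood for a gene. Comparisons needed a probe well above background on either array. With only 1 such array, the difference is a bound, taken from the dim array's lowest well-detected signal or from the dim probe itself if that was higher. All 6 pairs of arrays were compared at 2-fold, and a single array per group leaves no test. The number of arrays limits the precision.

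The 9 genes and the 13 gene lists (164 of 165 entries on the array) were chosen with earlier results of these data known. A gene of the SIN3 complex was taken off its list and is not reported here, and counts are over the genes that remain. The text names all 9 genes, up to 4 genes of each list with large differences, and the 5 nearest profiles of genes spanning 2 log2 units. Where it names others of a list, they were chosen after their values were seen. Alternatives were normexp (offset 50, limma 3.58.1), quantile normalization, a 75th percentile restricted to probes detected on every array, scaling on 10 spike-in probes, detection on both arrays, the median over probes, and the deposited value table as it stands, unscaled. The counting was run on simulated data with the same noise for every gene. That run did not cover the larger noise of dim signals or the spread between cultures. Probe positions refer to mm9 and carry no exon or UTR, as an mm9 annotation was not used here.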

Additional observations from a re-analysis of the deposited data

Results flagged for a closer look

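Myc differed from MEF in opposite directions in the pluripotent lines, with log2 differences of 0.76 for iPS-OSH, -0.40 for iPS-J and -1.98 for ESC. Each line has 1 array, the 3 differences share the MEF array, and the difference between the lines was not tested. The signs held under all 7 alternatives. Detection on both arrays and the median over probes could not change them, because Myc has a single probe that was well above background on every array.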

How the results depend on the processing

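Of 53 differences of the 9 genes, 46 kept their side of 2-fold under each of the 7 alternatives that gave a value. So did 13 of the 17 past 2-fold. The Mxi1 bounds had values under 6 alternatives, not under detection on both arrays. Detection on both arrays left the measured differences unchanged, and the median over probes changed only Mxd1 and Mxd4. None of the 17 reversed. The count for iPS-J against ESC went from 1 to 2 under quantile normalization, with Mxd3 at 1.12, and to 2 with the 75th percentile over detected probes, with Mxd1 at -1.13. The count for iPS-OSH against iPS-J went from 2 to 1 under normexp and to 1 under quantile normalization, with Mxd4 down to 0.90, and it rose to 3 under spike-in scaling and in the value table, with Mxd1 at 1.09 and 1.18. Mxd1 in iPS-J against MEF was -0.91 by the median over probes, Mga in iPS-J against MEF 0.71 in the value table, and Mxd3 in ESC against MEF -0.95 with the detected-probe percentile. The full order of the arrays was kept by 5 of 9 genes under normexp, 4 under spike-in scaling and 5 in the value table. The cause of these shifts was not tested.

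The scaling moved all genes together. The median over all genes in ESC against MEF was 0.11 as reported, 0.35 with the detected-probe percentile, -0.21 under spike-in scaling and -0.29 in the value table. The share of higher calls there was 57.0%, 67.9%, 39.5% and 35.9%. In iPS-OSH against ESC the median was -0.28 as reported, 0.12 under spike-in scaling and -0.09 under quantile normalization, with 24.8%, 52.5% and 46.9% of calls higher. In iPS-OSH against iPS-J it was 0.00 as reported and 0.27 in the value table, with 51.9% and 77.5% higher. The count of ribosome biogenesis genes higher than in MEF ranged from 7 to 13 for iPS-OSH, 3 to 8 for iPS-J and 4 to 15 for ESC, and that of germline genes from 8 to 13 in each line, 8 of 10 when both arrays had to be detected. No paired analysis was possible because each group holds 1 array. Signals near background limit Mxi1 and the second Mxd4 probe.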

Other observations

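The probe nearest to that of Mxd3 among those of its neighbour Prelid1, a mitochondrial lipid transfer gene, lies 367 bases away (chr13:55426573-55426632, mm9). It gave 108044 in iPS-OSH, 120152 in iPS-J, 55899 in ESC and 220701 in MEF, and it differed from MEF by -0.86, -0.37 and -1.55, where Mxd3 differed by -1.30, -0.36 and -1.19. Both genes were highest in MEF and next highest in iPS-J. Prelid1 was chosen after its values were seen.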
